A study of Homo sapiens with 2 samples.

Results

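The 10 genes described here sense oxygen or answer its lack: the hypoxia-inducible factor (HIF) subunit genes HIF1A, EPAS1 and ARNT, the HIF prolyl hydroxylase genes EGLN1, EGLN2 and EGLN3, and the HIF target genes ALDOA, VEGFA, CA9 and SLC2A1. They were chosen by symbol, with earlier results of these data known. Every peak that a deposited list of JARID2 peaks names for them was taken, 25 of 67071 peaks on the hg19 build. The list comes from 1 chromatin immunoprecipitation (ChIP-seq) library made with a polyclonal JARID2 antibody from untreated MDA-MB-231 cells, a triple-negative human breast cancer line. A second library, input DNA of the same untreated line with no antibody, belongs to the series, and no value of it was used. The labels name no low-oxygen culture and no genotype other than that of the line, and a peak list gives no marker levels to check the line by. With 1 ChIP library there is no replicate, so nothing below is a test between conditions, and each fold enrichment, tag count and false discovery rate (FDR) is the authors' own value for that peak. Tags are the reads a peak holds. The fold enrichment is a ratio to the background the peak caller estimated, and the count it sets against that background was not given. It does not follow the tags alone: 7.06 was listed for EGLN3 peaks of 10 and of 14 tags. The FDR is the caller's estimate of the share of false peaks among those as strong.

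JARID2 is an accessory subunit of Polycomb repressive complex 2 (PRC2), which methylates lysine 27 of histone H3 and is linked to gene silencing. In well-oxygenated cells the EGLN enzymes hydroxylate the HIF alpha subunits, the VHL ubiquitin ligase then marks them for destruction, and little HIF accumulates. When oxygen falls, HIF alpha escapes this, pairs with ARNT and binds DNA at the core letters ACGTG or GCGTG, raising genes for glycolysis, glucose uptake, blood vessel growth and pH control.

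Start-site sequences of 4 of the genes are shown because their peaks contrast: EGLN3 has a peak of high fold enrichment over a listed start, EPAS1 has one of low fold enrichment over a listed start, HIF1A has strong peaks only far inside the gene, and CA9 no listed peak. Each is the 250 bases before a RefSeq start on GRCh38.p14, read 5′ to 3′ along the gene, with ACGTG or GCGTG on either strand in capitals. The peaks are on hg19, and the 2 builds were not aligned to each other here, so no printed stretch was matched to a listed start or a peak. ALDOA has 3 RefSeq windows, and which of them, if any, precedes the listed start with its strong peak was not determined, so none is printed. HIF1A has 2 RefSeq windows, of which the more upstream is printed. The other held neither ACGTG nor GCGTG.
HIF1A (chr14:61695263-61695512, + strand): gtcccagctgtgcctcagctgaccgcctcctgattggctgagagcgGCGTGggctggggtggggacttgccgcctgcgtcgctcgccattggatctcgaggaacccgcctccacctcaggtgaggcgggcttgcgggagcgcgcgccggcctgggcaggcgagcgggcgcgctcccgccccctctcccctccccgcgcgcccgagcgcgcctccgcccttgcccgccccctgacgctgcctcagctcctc
EPAS1 (chr2:46297157-46297406, + strand): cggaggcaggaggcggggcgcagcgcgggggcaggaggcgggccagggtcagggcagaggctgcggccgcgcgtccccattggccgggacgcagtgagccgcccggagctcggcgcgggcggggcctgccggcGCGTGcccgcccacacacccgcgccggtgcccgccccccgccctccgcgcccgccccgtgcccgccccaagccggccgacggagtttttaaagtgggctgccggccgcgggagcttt
EGLN3 (chr14:33951075-33951324, - strand): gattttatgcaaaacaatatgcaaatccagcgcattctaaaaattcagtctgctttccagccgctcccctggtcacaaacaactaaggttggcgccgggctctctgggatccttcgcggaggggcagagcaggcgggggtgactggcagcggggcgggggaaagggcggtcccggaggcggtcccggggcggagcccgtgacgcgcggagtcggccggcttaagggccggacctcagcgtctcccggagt
CA9 (chr9:35673678-35673927, + strand): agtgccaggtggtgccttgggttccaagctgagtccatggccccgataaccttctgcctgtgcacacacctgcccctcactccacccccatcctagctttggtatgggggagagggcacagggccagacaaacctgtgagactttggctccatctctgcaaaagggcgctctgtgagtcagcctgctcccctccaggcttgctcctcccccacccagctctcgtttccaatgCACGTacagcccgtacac

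RefSeq windows of 250 bases before to 50 after a start were found for 9 of the 10 genes, 13 windows in all. The letters ACGTG or GCGTG, searched on both strands, were in 9 of these 13 windows and in 48.4% of all 35116 RefSeq windows. The 9 windows belong to 7 genes, and the windows of EGLN3 and ARNT held neither. All 3 ALDOA windows are among the 9 and the first 2 overlap, so the windows are not all separate. In SLC2A1 the match began 25 bases after the start. In CA9, whose product is a cell-surface carbonic anhydrase, the match began 18 bases before the start, and the window held 7 CpG dinucleotides. EPAS1 had its match 117 bases before the start in a window with 47 CpG and a G+C share of 80.0%, and the EGLN3 window held 27 CpG. The median over all windows was 14 CpG (interquartile range 4 to 28). CACGTG, which contains ACGTG on both strands, was in 2 of the 13 windows (1 of EGLN2 and 1 of ALDOA) and in 7.26% of all windows. These matches describe the letters and say nothing of where HIF binds.

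Peaks were listed for 7 of the 10 genes, promoter peaks for 5 and promoter peaks at an FDR of at most 5% for 3. The 7 genes with a peak were HIF1A, EPAS1, ARNT, EGLN1, EGLN3, ALDOA and SLC2A1. Over 20037 protein-coding genes, 56.3% had a peak, 33.1% a promoter peak (within 3 kb of an annotated start) and 2.47% a promoter peak at that FDR. The genes and the FDR limit were chosen with earlier results of these data known, so these shares and those below are no evidence of enrichment. No row of the list names EGLN2, VEGFA or CA9. Of the 25 peaks, 11 (44.0%, 95% exact Clopper-Pearson interval 24.4 to 65.1, counting error only) were of the promoter class, against 20.5% of all peaks. Of the 25 peaks, 5 (20%) reached that FDR, against 1.24% of all peaks, and 3 of these 5 lay at HIF1A. Peaks of 1 gene are not independent, so these shares rest largely on HIF1A and EGLN3, which hold 6 and 10 of the peaks. Without HIF1A the promoter share was 36.8% of 19 peaks, with 2 peaks at that FDR.

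**Figure D1:**
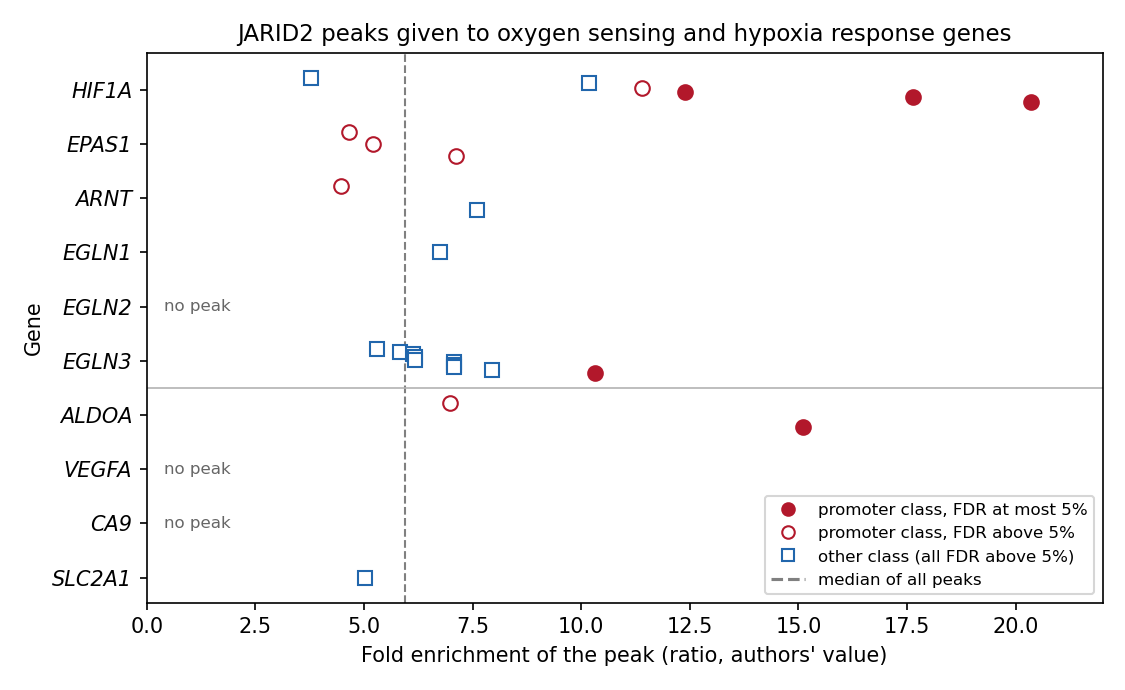
Fold enrichment (x axis, ratio, the authors' value) of every JARID2 peak named for each of the 10 genes (y axis), 1 point per peak. Filled circles are promoter-class peaks at an FDR of at most 5%, and they occur at HIF1A, EGLN3 and ALDOA only among these genes; the dashed line is the median of all peaks, 5.95.

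HIF1A, which encodes the oxygen-regulated subunit of HIF-1, carried the strongest peaks of the set, and all of the strong ones lay well inside the gene. Its largest peak (chromosome 14, 62206944 to 62208087) had a fold enrichment of 20.35, 88 tags (95% Poisson interval 70.6 to 108) and an FDR of 0. The next (62204565 to 62205348) had 17.63, 41 tags and an FDR of 0.35%. The third (62194105 to 62194671) had 12.38, 31 tags and an FDR of 1.09%. A further peak (62203368 to 62204144) had 11.4, 31 tags and an FDR of 7.41%. All 4 belong to the promoter class. Another, in the 5′ untranslated region class (62186850 to 62187624), had 10.19, 34 tags and an FDR of 23.69%. The weakest (62145914 to 62146692), classed as downstream of a gene and 15539 bp upstream of the nearest HIF1A start, had 3.78, 22 tags and an FDR of 47.0%. By fold enrichment, 69 of the 67071 peaks exceeded the largest HIF1A peak, and 40 protein-coding genes had a larger promoter peak.

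The HIF1A promoter label comes from short internal transcripts. The 4 promoter-class peaks were assigned to ENST00000556237, ENST00000555014 and ENST00000547430, which span 1229, 4299 and 838 bp. The most upstream HIF1A start in the list, that of ENST00000557446 at 62162231, had no peak over it. The 5 peaks with a fold enrichment of at least 10 began 24.6 kb downstream of it and lay within 21.2 kb, with gaps of 420 to 8696 bp. Their summits were 25, 32.1, 41.5, 42.7 and 45.5 kb from that start, and 0 HIF1A peaks were of the intron class. The promoter class does not tell exon from intron, and exon positions were not used here. If promoter peaks are counted only at listed transcripts of at least 5 kb, a limit chosen after these values were seen, HIF1A has none, and 2 of the 10 genes remain with one at an FDR of at most 5% (2.10% of protein-coding genes). Peaks at listed transcripts under 5 kb were 5 of the 11 promoter peaks of the set (45.5%) and 41.7% of all promoter peaks.

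**Figure D2:**
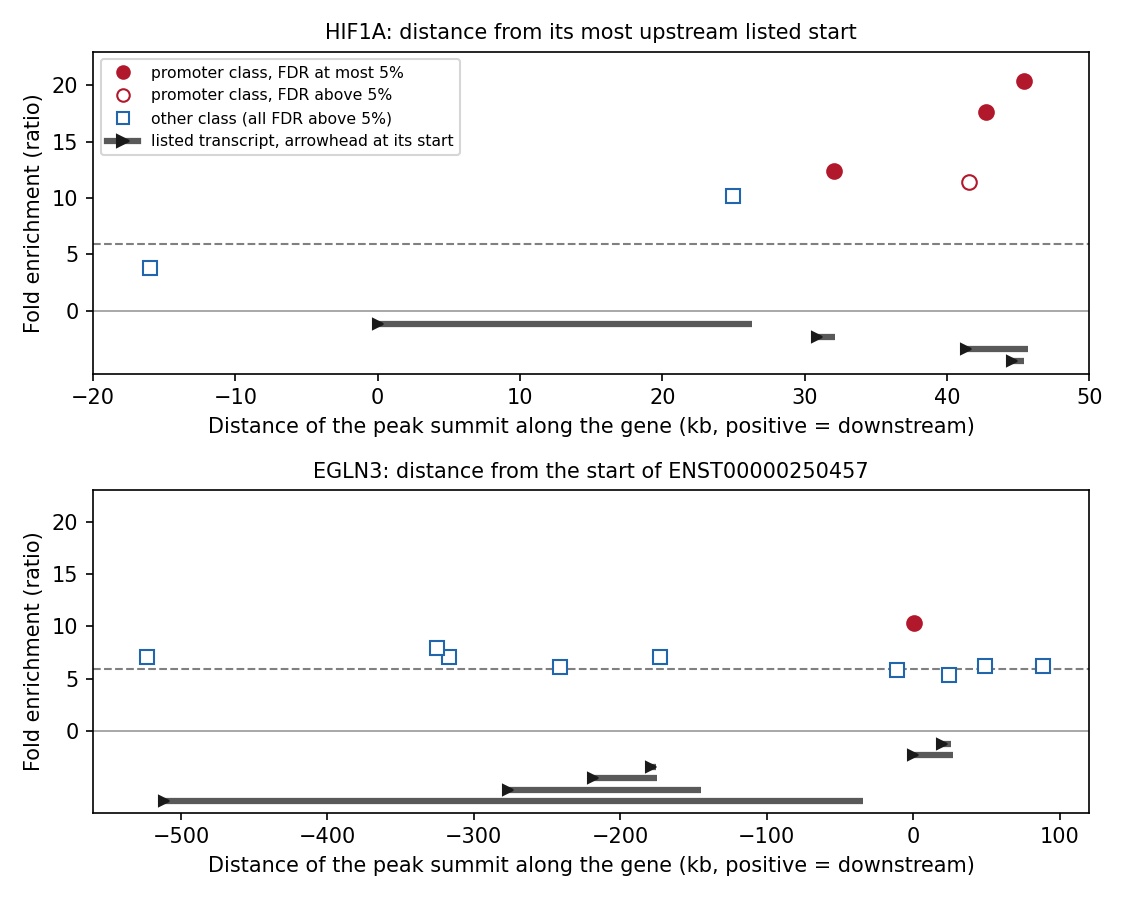
Fold enrichment (y axis, ratio) against the distance of each peak's summit (x axis, kb, positive downstream) from the most upstream listed HIF1A start (top) and from the start of the EGLN3 transcript ENST00000250457 (bottom). Bars under each panel are the listed transcripts with an arrowhead at the start, and the dashed line is the median of all peaks; the HIF1A peaks above 10 lie 25 to 45.5 kb inside the gene, while the EGLN3 peak of 10.31 lies at the start.

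Few genes had as many strong peaks as HIF1A. A fold enrichment of at least 10, a value chosen after the HIF1A peaks were seen, was reached by 1.04% of all peaks and by 7 of the 25 peaks of the set, 5 of them at HIF1A. Of 26257 symbols in the list, 652 had such a peak and 639 of these had exactly 1. More than HIF1A's 5 were named for TOPBP1 (12), a DNA damage response gene, KDM1A (9), a histone demethylase gene, and JARID2 itself (8). RNU7-20P, a small RNA pseudogene, also had 5, all inside the listed span of EZH2, the gene of the PRC2 methyltransferase. Y_RNA had 5 too, but that symbol covers copies on several chromosomes and its peaks lay on 4.

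EPAS1, which encodes the alpha subunit of HIF-2, had 3 promoter-class peaks and none at an FDR of at most 5%. The peak over a start (chromosome 2, 46524875 to 46525467, ENST00000467888) had a fold enrichment of 5.2, 16 tags and an FDR of 45.99%. Just downstream, 928 bp from the same start, a peak 1473 bp wide (46525830 to 46527302) held 67 tags (51.9 to 85.1) at a fold enrichment of only 4.66 and an FDR of 12.2%. The third (46519133 to 46519625), 1181 bp upstream of another start, had 7.12, 11 tags and an FDR of 48.07%. Tags and fold enrichment thus rank the EPAS1 peaks in opposite order: 181 peaks of the whole list held more tags than the wide one, and 59424 had a larger fold enrichment.

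ARNT, the gene of the constitutive HIF partner, had 2 weak peaks near its listed short transcript. The promoter-class peak (chromosome 1, 150810406 to 150811696) lay 2721 bp upstream of the start of ENST00000468970, which spans 5014 bp, with a fold enrichment of 4.48, 36 tags and an FDR of 23.46%. The other (150817258 to 150817669) was in intron 18 of 21 of ENST00000358595 and had 7.61, 10 tags and an FDR of 45.63%. Neither was assigned to the start of that longer transcript. ARNT is on the minus strand, so the promoter-class peak lies beyond the intron 18 peak, farther from that start. Its promoter label rests on the short transcript.

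Among the 3 oxygen-sensing hydroxylase genes, EGLN3 had a strong peak over a start, EGLN1 had weak peaks only and EGLN2 none in the list. The EGLN3 peak (chromosome 14, 34419497 to 34420496) covered the start of ENST00000250457, with its summit 286 bp downstream, a fold enrichment of 10.31, 37 tags (26.1 to 51.0) and an FDR of 2.73%. The sequence printed for EGLN3 precedes the only RefSeq start found for it, and it holds neither HIF core. A larger promoter peak was found at 293 of the 6639 protein-coding genes with one.

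The other 9 EGLN3 peaks were weak and spread along long annotated transcripts and beyond them. They comprised 5 intron peaks, 3 distal intergenic peaks and 1 on exon 4 of 5 of ENST00000250457, with fold enrichments of 5.3 to 7.95 and FDRs of 22.39 to 48.79%. Relative to the start of ENST00000250457 their summits ran from −523.2 kb, beyond the start of the 477394 bp transcript ENST00000551935, to 88.8 kb. The largest, at 34745483 to 34746069 in intron 4 of 4 of that transcript, had 17 tags. A further 10 peaks inside the EGLN3 span, extended by 3 kb, carried the symbols AL356806.3 (5), EGLN3-AS1 (4) and AL358340.1 (1). Their fold enrichments were 4.46 to 7.95, and the lowest FDR was 19.03%.

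EGLN1, the gene of the main HIF hydroxylase in most cells, was named for 1 peak, 11819 bp upstream of its start (chromosome 1, 231572083 to 231572609), with a fold enrichment of 6.75, 12 tags and an FDR of 47.81%. Inside EGLN1, 4 more peaks were assigned to SPRTN, the neighbouring gene with the nearest start, although the deposited class places them in EGLN1. They lay in intron 2 of 4 (6.77 and 4.42), exon 3 of 5 (5.3) and exon 2 of 5 (6.06) of ENST00000366641, at FDRs of 35.1 to 47.97%. Counting these, EGLN1 had 5 peaks, none in a promoter and none at an FDR of at most 5%.

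Among the target genes, ALDOA had 2 promoter peaks and SLC2A1 1 weak peak, and VEGFA and CA9 had none in the list. ALDOA encodes the glycolytic enzyme aldolase A. Its stronger peak (chromosome 16, 30064073 to 30064711) covered the start of ENST00000338110, with the summit at −115 bp, a fold enrichment of 15.11, 34 tags (23.5 to 47.5) and an FDR of 0.32%. The weaker (30075116 to 30076111) covered the start of the 677 bp transcript ENST00000562302 and had 6.97, 26 tags and an FDR of 17.1%. A larger promoter peak than the stronger one was found at 81 protein-coding genes. For SLC2A1, which encodes the glucose transporter GLUT1, the only peak (chromosome 1, 43390150 to 43390579) lay in the class just downstream of the gene with 5.02, 16 tags and an FDR of 38.81%. VEGFA encodes the main vessel growth factor induced by HIF.

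Set side by side, promoter peaks were listed at 4 of the 6 HIF subunit and hydroxylase genes and at 1 of the 4 targets. Those of HIF1A and ARNT carry the promoter label through short listed transcripts only. At an FDR of at most 5% the counts were 2 of 6 (HIF1A and EGLN3) and 1 of 4 (ALDOA). Over all protein-coding genes the shares were 33.1% with a promoter peak and 2.47% with one at that FDR. These counts rest on few genes and were not compared by a test. Taking each gene's highest promoter fold enrichment, the median over these 4 subunit and hydroxylase genes was 8.715, from 4.48 at ARNT to 20.35 at HIF1A, and the only target value was 15.11. The order of the groups therefore rests on 1 target gene, lies inside the range of the other group only through HIF1A, and turned round when tags replaced fold enrichment (a difference of 18 tags higher for the subunit and hydroxylase genes). Fold enrichment and tags took different EPAS1 peaks. By fold enrichment it was the peak of 7.12, with 11 tags and an FDR of 48.07%, and by tags the wide peak of 67 tags. Without HIF1A, or with promoter peaks only at listed transcripts of at least 5 kb, the subunit and hydroxylase genes ran from 4.48 to 10.31. The target value lay above that range, a difference of medians of −7.99 against −6.395. The transcript limit keeps ARNT only narrowly, since its listed transcript spans 5014 bp. Both groups had peaks outside promoters, 13 and 1. Apart from the 2 at HIF1A, the 12 peaks outside the promoter class had fold enrichments of 5.02 to 7.95 and 10 to 17 tags, near the medians of all peaks (5.95 and 12 tags).

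**Figure D3:**
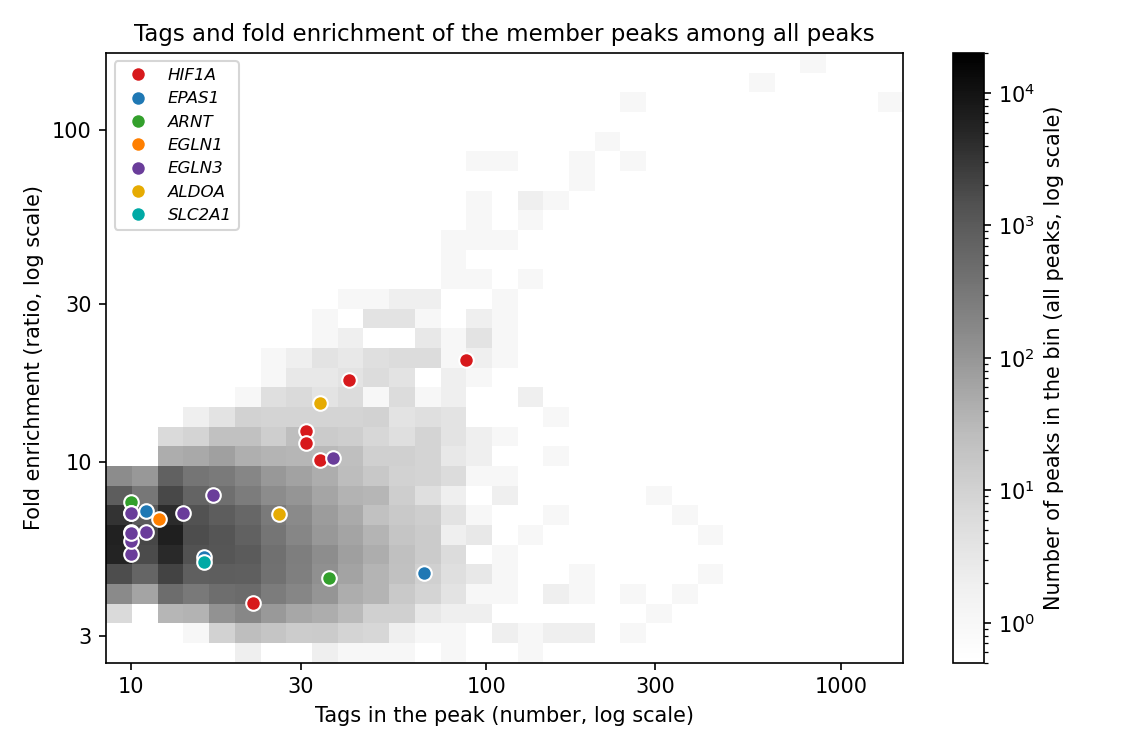
Tags (x axis, log scale) against fold enrichment (y axis, ratio, log scale) for the 25 peaks, coloured by gene, over the number of all 67071 peaks in each bin (grey). The wide EPAS1 peak, with 67 tags at 4.66, and the largest HIF1A peak, with 88 tags at 20.35, differ more in fold enrichment than in tags.

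Across the 25 peaks, Spearman's rho between tags and fold enrichment was 0.34 and Pearson's r 0.62, given as a description, since peaks share genes and 1 library. The wide EPAS1 peak and the ARNT promoter peak ranked high by tags and low by fold enrichment.

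The wider pathway was read from 56 further genes in 4 lists. Promoter peaks were listed at 28 of the 56 (50%) and promoter peaks at an FDR of at most 5% at 5, against 33.1% and 2.47% of all protein-coding genes. Each gene's highest promoter fold enrichment had a median of 6.18 in these genes and 6.18 over all protein-coding genes with a promoter peak. None of these counts was tested as a set, and the lists were chosen with earlier results of these data known.

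Glucose transport and glycolysis had the most genes with a promoter peak, 14 of 21 further genes (66.7%, against 33.1% of all protein-coding genes). At an FDR of at most 5% there were 3 (14.3%, against 2.47% of all protein-coding genes): PGK1, GAPDH and SLC16A3. PGK1, the phosphoglycerate kinase gene, had a peak over a start (chromosome X, 77358975 to 77359960) of 10.16 with 40 tags and an FDR of 0.52%. GAPDH (chromosome 12, 6642714 to 6643912) had 8.69 with 51 tags and an FDR of 0.37%. SLC16A3, which encodes the lactate exporter MCT4, had 6.37 with 69 tags and an FDR of 0, 524 bp from a start (chromosome 17, 80187492 to 80189039). SLC2A3 and PFKFB3 followed by fold enrichment with 7.06 each, at FDRs of 43.46 and 43.47%. The remaining genes of this list with a promoter peak had lowest promoter FDRs of 22.83 to 48.19%. The median FDR of all peaks was 44.21%, so most of these promoter peaks are weak calls. PGK1 and GAPDH have processed pseudogenes in the genome, and how the authors placed reads shared with such copies was not stated.

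Other HIF targets had promoter peaks at 11 of 24 further genes (45.8%, against 33.1% of all protein-coding genes). KDM3A, a histone demethylase gene, had the largest (chromosome 2, 86667354 to 86668329), over a start, with 11.1, 60 tags and an FDR of 0. TFRC, the transferrin receptor gene, had 8.55 with 38 tags and an FDR of 3.15% (chromosome 3, 195808375 to 195809392). CXCR4, a chemokine receptor gene, had 9.71 with 14 tags and an FDR of 22.32%. No other gene of this list had a promoter peak at an FDR of at most 5%, so 2 of the 24 did (8.33%, against 2.47%).

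Of 7 further genes of the oxygen-sensing machinery, 2 had a promoter peak (33.1% of all protein-coding genes did) and none had one at an FDR of 5% or lower (2.47% of all protein-coding genes did). The 2 were P4HTM, a membrane prolyl hydroxylase gene (6.61, 31 tags, FDR 12.15%), and VHL, the gene of the HIF ubiquitin ligase subunit (4.76, 21 tags, FDR 40.37%). Among 4 further subunit and coactivator genes only ARNT2, a paralogue of ARNT, had one (6.18, 12 tags, FDR 45.51%).

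**Figure D4:**
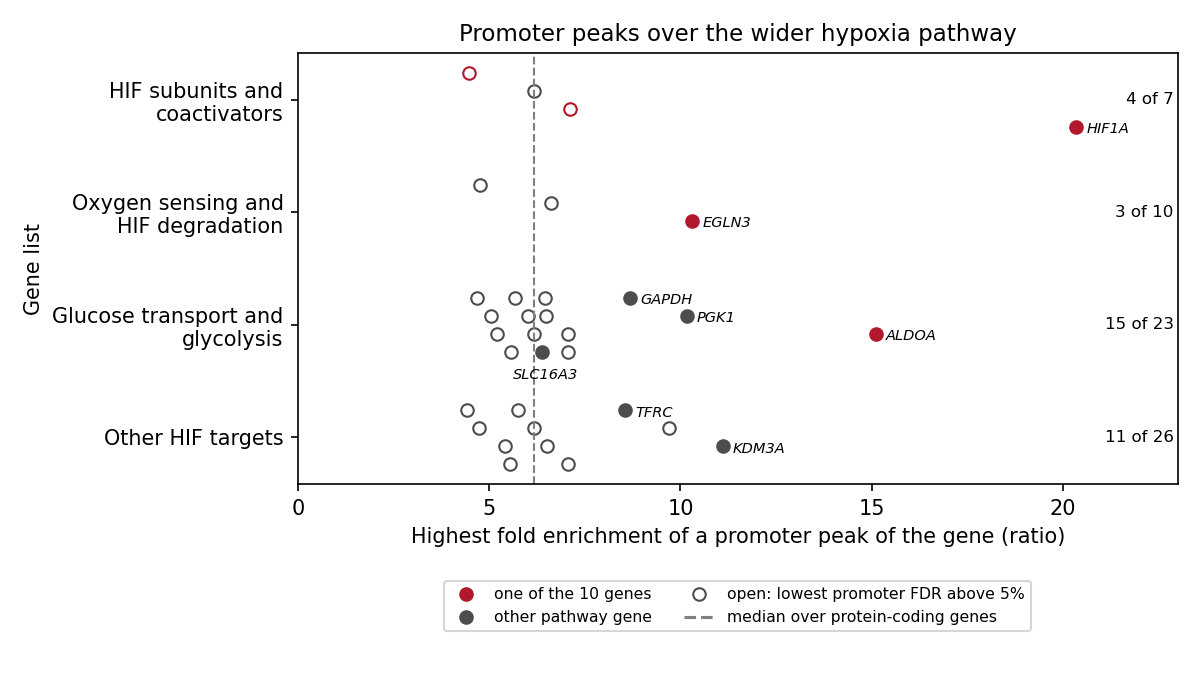
Highest fold enrichment of a promoter peak (x axis, ratio) for each gene with one, in the 4 pathway lists (y axis), with the number of genes with a promoter peak out of all in the list at the right. Red points are among the 10 genes, filled points have a promoter peak with an FDR of 5% or lower and are named, and the dashed line is the median over protein-coding genes, 6.18; the 8 filled points include HIF1A, EGLN3 and ALDOA.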

How the data were processed

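The data are 1 deposited list of annotated JARID2 peaks from 1 ChIP library. The tools named in the submitters' processing notes are ChIPseeker, MACS2, MACS, Bowtie 0.12.8 and bcl2fastq, with the hg19 build. The list's own caller, its thresholds, duplicate handling and use of the input were not given in the sources used here. Chromatin had been formaldehyde-fixed and sheared by sonication, per the labels. Per the file headers, the authors deposited a whole-number tag count per peak, a fold enrichment (a linear ratio to the caller's background) and an FDR in percent. The header of a further deposited score is unreadable, and it was taken for −log10 p times 10, its minimum being 30, so limits on p rest on that reading. Library depth is unknown. Intervals on tags and shares cover counting error only.

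Symbols were matched to 20037 protein-coding genes of the RefSeq table (GRCh38.p14) by symbol or by a synonym of 1 gene. The table gave names only, and each peak is named for its nearest start. Promoter sequences are RefSeq's. Scripts used Python 3.11.15, pandas 2.3.3 and SciPy 1.17.1, and the counting steps were checked on simulated data. Genes named are the 10 members, pathway genes with a promoter peak at an FDR of at most 5%, the 3 of largest promoter fold enrichment per list, and symbols inside a member's span. Where equal values shared the third place, both were named. Genes named for their number of strong peaks, and the intronic ARNT2 peak, were chosen after their values were seen. The members and lists were chosen with earlier results of these data known. Alternatives were limits on p, fold enrichment and FDR, a 1 kb promoter reach, merging of neighbouring peaks, assignment by span, and tags in place of fold enrichment. Limits on transcript length and the removal of HIF1A were added after the data were examined.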

Additional observations from a re-analysis of the deposited data

How the results depend on the processing

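No paired analysis was possible because there is 1 ChIP library and no replicate. Of 43 recomputed values, 34 stayed close to those reported (counts and the difference of medians within 1.5 times, the promoter share within its interval). Some of the 34 could hardly move, so their number is no measure of robustness. Merging keeps the largest fold enrichment and the lowest FDR, and leaving out HIF1A lowers a gene count by at most 1. At −log10 p of at least 5, 9 of the 56 further pathway genes had a promoter peak, against 9.89% of all protein-coding genes. At that limit 75% of the peaks of the 10 genes were of the promoter class. When only the 25% of peaks with the largest fold enrichment were kept, 8 of the 56 had one, against 11.2% of all protein-coding genes. At an FDR of at most 20%, 7 of the 56 had a promoter peak, against 5.44% of all protein-coding genes. At that limit 4 of the 10 genes had any peak, and 100% of their peaks (8 of 8) were of the promoter class. At these limits on p and FDR, the promoter share of all peaks was not counted, nor the share of all genes with any peak. These values are therefore not shown to be particular to the 10 genes. At an FDR of 0 only HIF1A remained, 1 of the 10 genes, and the share of all protein-coding genes at that limit was not counted. With promoter peaks only at listed transcripts of at least 5 kb, 18 of the 56 had one, against 26.0% of all protein-coding genes. Each of these settings keeps fewer peaks by construction. The difference between the subunit and hydroxylase genes and the targets was −6.395 in fold enrichment and reversed to 18 in tags; the cause was not tested. With 10 to 17 tags, the weak peaks outside promoters cannot be ranked among themselves: for 10 tags the 95% Poisson interval is 4.8 to 18.4.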

Other observations

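One pathway peak outside the promoter class reached an FDR of at most 5%. It lay in intron 5 of 18 of ARNT2 (chromosome 15, 80781337 to 80781935), with a fold enrichment of 15.89, 27 tags and an FDR of 0.33%.

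Peaks named for pseudogene copies were counted for 3 glycolytic genes, GAPDH, ALDOA and PGK1. The 28 GAPDH pseudogene symbols had 55 peaks with fold enrichments of 4.16 to 8.66 and a lowest FDR of 22.39%, against 8.69 and 0.37% at the GAPDH promoter peak, and 1 of the 55 covered the pseudogene's start. The 2 ALDOA pseudogene symbols had 4 peaks at 4.91 to 7.06, and PGK1P2 had 1 at 5.14.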
